A study of Mus musculus with 24 samples.

Results

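The genes described here are Rest and 34 neuronal genes listed as repressed by its product outside neurons, followed in dermal papilla cells of the hair follicle through the hair cycle. Several of them were expressed in Control cells, as given below. They were chosen by gene symbol from a written list, and all 35 were found among the 25755 genes of the expression tables. By role they comprise the repressor (Rest), 13 genes of the cytoskeleton and growth cone, 8 of synaptic vesicle release, 5 granins and secretory granule proteins, 4 neuronal RNA-binding proteins, 2 glutamate receptor subunits and 2 Bex genes.

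The dermal papilla (DP) is a mesenchymal cell cluster under the hair matrix, and it signals to the epithelium during hair growth. The study asked what becomes of these cells when the histone deacetylases Hdac1 and Hdac2 are both deleted in them. DP cells carrying yellow fluorescent protein (YFP) were sorted from dissociated mouse skin at postnatal day 20 (P20, first telogen, the resting phase), P24 (early anagen, the growth phase), P28 (mid anagen) and P60 (second telogen), and their ribosomal-RNA-depleted total RNA was sequenced. There were 3 Control and 3 dM1/2 libraries at each age, 24 in all.

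Every mouse carried 1 copy of Corin-cre (Cor-cre/+), a Cre line active in the DP, and the cells were marked by Cre through a ROSA26 EYFP reporter. The dM1/2 double mutants were Cor-cre/+ with both Hdac1 alleles and both Hdac2 alleles floxed (fl/fl at each gene). Controls were also Cor-cre/+ and still had at least 1 unfloxed allele, in any of 5 combinations: Hdac1 fl/+ with Hdac2 fl/+, Hdac1 fl/+ with Hdac2 +/+, Hdac1 +/+ with Hdac2 fl/+, Hdac1 fl/+ with Hdac2 fl/fl, or Hdac1 fl/fl with Hdac2 fl/+. The labels do not say which combination a given Control library had, so a Control may lack 1 of the genes altogether in its recombined cells. The Cre line came from an FVB background and the floxed and reporter lines from C57BL/6J. YFP reports recombination at its own locus and not at Hdac1 or Hdac2, so a sorted cell need not have lost either gene.

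Values are normalized reads, that is, reads per gene divided by a factor for the depth of the library. The libraries held 11635062 to 13369732 reads on genes at P20, 35469841 to 49331751 at P24, 37171260 to 48331795 at P28 and 8171944 to 9724000 at P60. The anagen libraries were therefore deeper, and 3 reads, taken as the floor of detection per library, were worth 5.55 to 8.60 normalized reads at P20 and 6.30 to 7.57 at P60, against 1.02 to 1.51 at P24 and 1.14 to 1.92 at P28. Floors of this kind cover counting error only. Age also went with sex: Xist lay between 8113 and 26333 normalized reads in the P20 and P60 libraries, with Ddx3y at 0 in each, while Xist was at most 3.91 and Ddx3y between 969 and 1738 in the P24 and P28 libraries. Stage, sex and depth cannot be told apart in comparisons between telogen and anagen, whereas both genotypes had the same sex by these genes, and overlapping depths, within each age.

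REST, also called NRSF, is a zinc-finger protein that binds the RE1 element, a long motif near or within many neuronal genes. Bound REST recruits the CoREST and SIN3 corepressor complexes, both of which contain HDAC1 and HDAC2, and with them the demethylase LSD1 (Kdm1a), so that nearby histones lose acetyl groups. In cells outside the nervous system this keeps the neuronal genes quiet, and REST is taken down as neurons mature.

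Hdac1 was read first, since it is a targeted gene. At P20 it was at 375, 511 and 505 normalized reads in Control and 216, 369.6 and 270.0 in dM1/2. At P24 it was at 675, 668 and 668 in Control and 209, 188 and 116 in dM1/2, at P28 at 214, 529 and 104.7 in Control and 190.2, 149 and 126 in dM1/2, and at P60 at 506, 359.9 and 376 in Control and 371, 347 and 318 in dM1/2. With all libraries kept it passed the test only at P24, with a log2 fold change of -2.01 ± 0.22 (SE; adjusted p = 0.00167); at P20 the dM1/2 libraries were also all below Control but the difference was -0.72 ± 0.22 (SE; adjusted p = 0.122). The library labelled P28 control 3, at 104.7, lay below all 3 dM1/2 libraries of that age, although it is labelled Control. The Control genotypes allowed include 1 with both Hdac1 alleles floxed, and the labels do not say whether this library had it. In Corin and Fgf7, a pair of DP markers picked after their values were seen, it lay on the Control side: Corin was at 41112, 30326 and 75255 in Control and 4581, 4009 and 5005 in dM1/2, and Fgf7 at 12442, 4908 and 15936 and 2413, 1955 and 2201. At P28 the difference in Hdac1 was -0.58 ± 0.55 (SE; adjusted p = 0.454). Without the library labelled P28 control 3 both other Control libraries lay above dM1/2, and Hdac1 passed at P28 with a log2 fold change of -1.13 ± 0.37 (SE; adjusted p = 0.0426). At P60 the groups overlapped, at -0.25 ± 0.19 (SE; adjusted p = 0.986). Counts of genes past the threshold at P28, and the P28 fold changes of members and of genes of the REST lists named as having passed, are therefore given with and without this library. Other P28 values are given with it unless stated.

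Hdac2 did not pass the test at any age by limma. Its values were 828, 952 and 852 normalized reads in Control and 928, 839 and 838 in dM1/2 at P20, 925, 1048 and 1069 in Control and 1157, 1223 and 1282 in dM1/2 at P24, 1077, 968 and 1117 in Control and 1091, 1223 and 1209.6 in dM1/2 at P28 and 775, 727 and 609 in Control and 699, 719 and 809.6 in dM1/2 at P60. The log2 fold changes were -0.01 ± 0.12 (SE; adjusted p = 0.957), 0.27 ± 0.11 (SE; adjusted p = 0.117), 0.16 ± 0.11 (SE; adjusted p = 0.333) and 0.08 ± 0.16 (SE; adjusted p = 0.991) in the same order, and 0.20 ± 0.13 (SE; adjusted p = 0.263) at P28 without the library labelled P28 control 3. Both values sum reads over every exon of the gene, so a transcript from a recombined allele that keeps its other exons is still counted, and the level does not measure the deletion itself. All 15 DP markers examined (Corin, Alpl, Vcan, Sox2, Rspo3, Lef1, Prom1, Wif1, Fgf7, Fgf10, Bmp4, Bmp6, Alx4, Trps1 and Hhip) had at least 3 reads in every library.

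The RE1 consensus was searched near the starts of the genes. It was written TTCAGCACCNNGGACAGCGC, which has 18 set letters and 2 free ones, and was sought on both strands in windows from 250 bases before to 50 after the RefSeq start of 27025 mouse genes (build GRCm38.p6). A window was available for 23 members, and for Rest, Stmn2, Stmn4, Gap43, Mapt, Nefl, Nefm, Nefh, Snap25, Syt4, Vgf and Celf4 none was used. Gria2 came within 1 mismatch of the consensus and Syn1 within 2, a limit chosen after the values were seen. Over all 27025 genes, 12 (0.0444%) had a match with at most 2 mismatches. Of 45 other genes with RE1 elements known from elsewhere, read below, 32 had a window and 0 had such a match. Unc13a had 5 mismatches at best, and the other 20 members with a window had 6 to 9.
In Gria2 the match (chr3:80802989-80803008) lies 173 to 154 bases before the start, on the strand opposite to the gene, and in Syn1 (chrX:20921131-20921150) it lies 232 to 213 bases before the start on the strand of the gene. Scg2 holds both half-sites of the element, CAGCACC and GGACAGC, directly joined with no spacer (chr1:79440027-79440040), on the opposite strand and within its first annotated exon, an arrangement that 2 of the 27025 genes had. The stretches of Gria2 and Syn1 are shown because they have the fewest mismatches among the members, and that of Scg2, which has 7 mismatches at best to the full consensus, because of its joined half-sites. Each is from RefSeq, build GRCm38.p6, read 5′ to 3′ on the strand of the gene, which is the minus strand in each case, with the match in capitals. They cover chr3:80802836-80803085 and chrX:20921005-20921168, both before the annotated gene, and chr1:79440019-79440048.
Gria2: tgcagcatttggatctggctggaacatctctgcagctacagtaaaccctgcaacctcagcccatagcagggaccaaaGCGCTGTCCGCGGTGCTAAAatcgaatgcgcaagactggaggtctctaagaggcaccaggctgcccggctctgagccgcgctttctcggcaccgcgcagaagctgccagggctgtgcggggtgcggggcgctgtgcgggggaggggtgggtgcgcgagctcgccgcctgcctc
Syn1: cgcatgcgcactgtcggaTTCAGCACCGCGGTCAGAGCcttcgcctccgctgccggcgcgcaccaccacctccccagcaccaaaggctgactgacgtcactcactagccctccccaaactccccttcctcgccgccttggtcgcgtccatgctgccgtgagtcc
Scg2: gccgaggaGCTGTCCGGTGCTGaaacggcc
The half-site CAGCACC alone, part of the consensus, was in the window of 5 members (21.7%; Chgb, Scg2, Syn1, Tubb3 and Unc13a) and of 8.14% of all genes. GGACAGC was in that of 5 members (21.7%; Gria2, Map2, Scg2, Tubb3 and Unc13a) and of 7.59% of all genes. A match is a description of letters and not of binding, and many RE1 elements lie in introns or far from the start, outside these windows. Of the members whose sequence is shown, Syn1 passed the test between genotypes that follows, while Gria2 and Scg2 were too low to be tested.

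**Figure D1:**
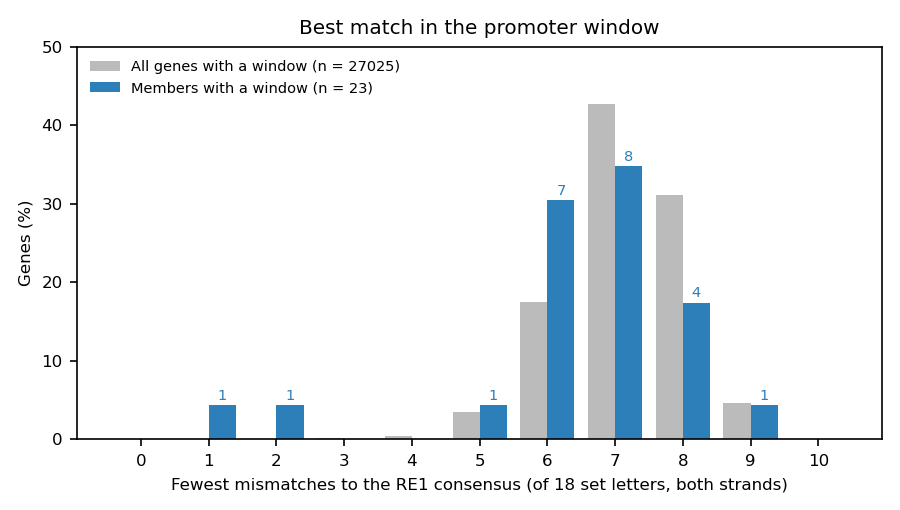
Percent of genes (vertical axis) by the fewest mismatches to the 18 set letters of the RE1 consensus in the window around the start (horizontal axis), for all 27025 genes with a window and for the 23 members with one. Both peak at 7 mismatches, and 2 members, Gria2 and Syn1, sit at 1 and 2.

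Most members were low in the DP, and per length Rest was the most abundant of them in Control at P20, P24 and P28. Levels can be compared between genes per length of exon. In Control, Rest was at 232 ± 23.0 normalized reads per kb (SD, n = 3) at P20, 321 ± 50.3 at P24 and 233 ± 22.9 at P28, the highest of the 35 at each of these ages. At P60 Rest stood next, at 204 ± 20.2, after Scg3 at 359 ± 85.8. Rab3a, Gap43 and Scg3 followed Rest at P24, at 107 ± 9.12, 93.7 ± 32.5 and 60.9 ± 7.52 per kb, and Rab3a and Gap43 did not differ beyond their spread. A Control mean of at least 10 normalized reads was reached by 17, 17, 17 and 16 of the 35 members, Rest included, at P20, P24, P28 and P60. At the other end, 16, 24, 19 and 15 of the 35 members had more than 3 reads in all 3 Control libraries at P20, P24, P28 and P60. The dM1/2 counts were 16, 27, 29 and 15. At P28 no member was at 0 in all 3 dM1/2 libraries, whereas Ina, Elavl4 and Cplx1 were at 0 in all 3 Control libraries.

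**Figure D2:**
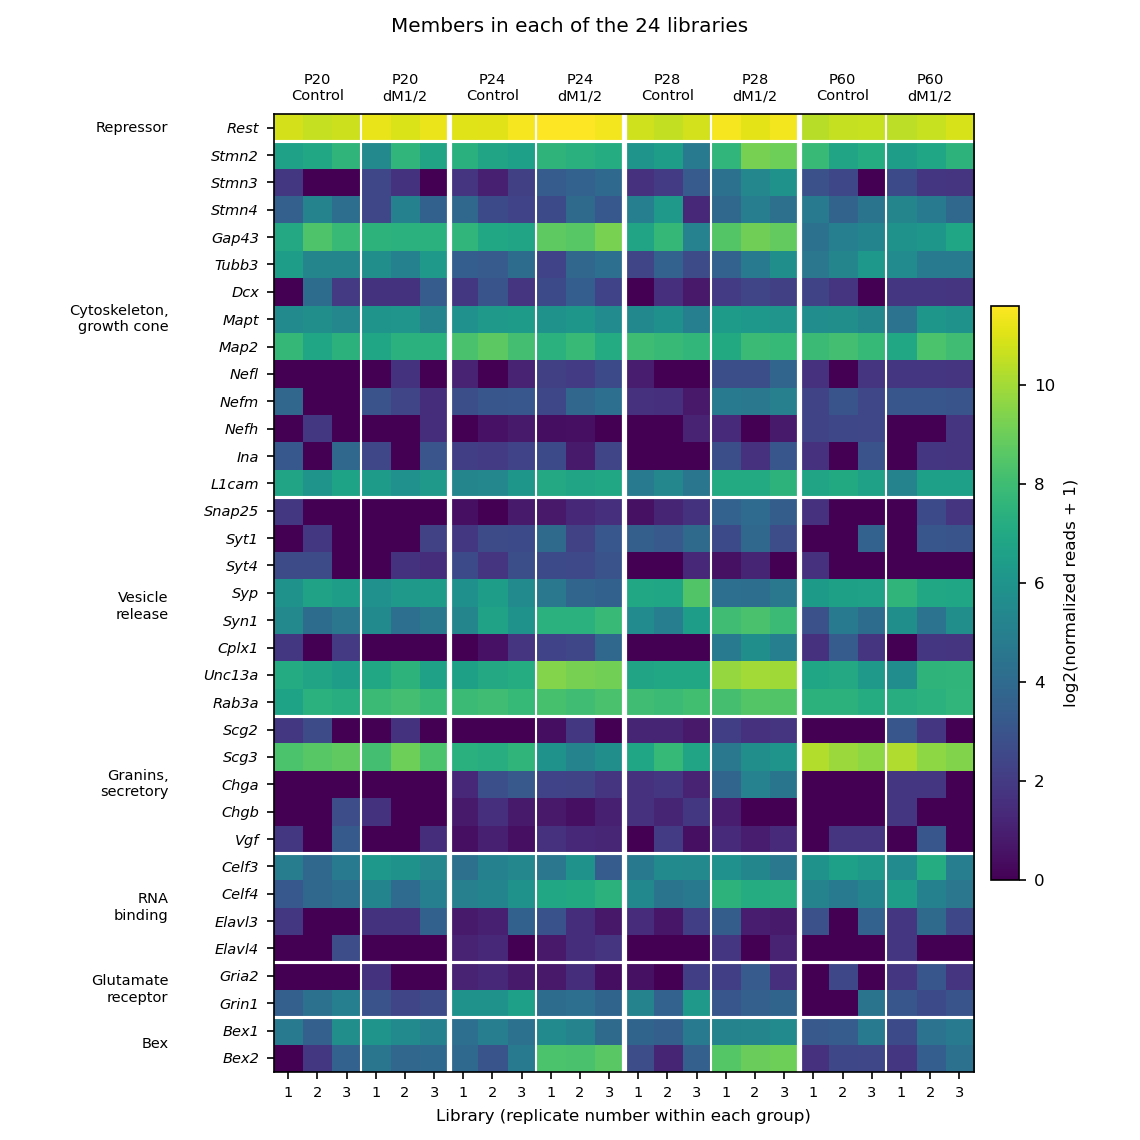
log2(normalized reads + 1) of the 35 members (vertical axis, by role) in each of the 24 libraries (horizontal axis, by age and genotype). Rest is high in all libraries, and genes such as Bex2, Cplx1, Nefm and Chga are brightest in the P28 dM1/2 libraries.

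In anagen, 16 of the 35 members differed between the genotypes at P24, P28 or both, and at neither telogen age did any pass the same test. Those that rose in dM1/2 were led by Bex2, Cplx1, Nefm and Unc13a, and those that fell were Syp, Scg3, Grin1 and Map2. The test was limma on log2(normalized reads + 1), 2-sided, for genes averaging 10 normalized reads or more across the 6 libraries of that age, with Benjamini-Hochberg adjustment over all genes tested and a threshold of 0.05. Every adjusted p given here is from limma unless another tool is named, and every fold change without a unit is on that log2 scale, which understates the change of low genes. In whole-population RNA such as this, fewer cells of a type and less RNA per cell cannot be told apart.

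At P24, 17 members were tested and 10 passed, where 26.6% of all 14028 genes tested passed; 6 rose (14.8% of all genes did) and 4 fell (11.8%). The median log2 fold change of the 17 was 0.36, beside -0.01 over all genes. At P28, 22 were tested and 14 passed, where 35.5% of all 14126 genes did; 12 rose (20.0%) and 2 fell (15.6%). The median was 2.05 beside 0.00 over all genes, and it was the same with Cplx1, whose Control libraries were all at 0, placed at its lower bound. Over all 35 members with no filter on level the P28 median was 1.29. Of the 14 that passed at P28, Bex2, Nefm, Stmn3, Cplx1 and Chga had a Control mean under 10 normalized reads and entered the test only through their dM1/2 libraries, so they had to differ to be counted, and the counts and medians over tested members carry that selection. The same 8 members passed at both ages (Gap43, L1cam, Syn1, Unc13a, Celf4, Bex2, Syp and Scg3), Map2 and Grin1 at P24 alone, and Rest, Nefm, Stmn2, Stmn3, Cplx1 and Chga at P28 alone.

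**Figure D3:**
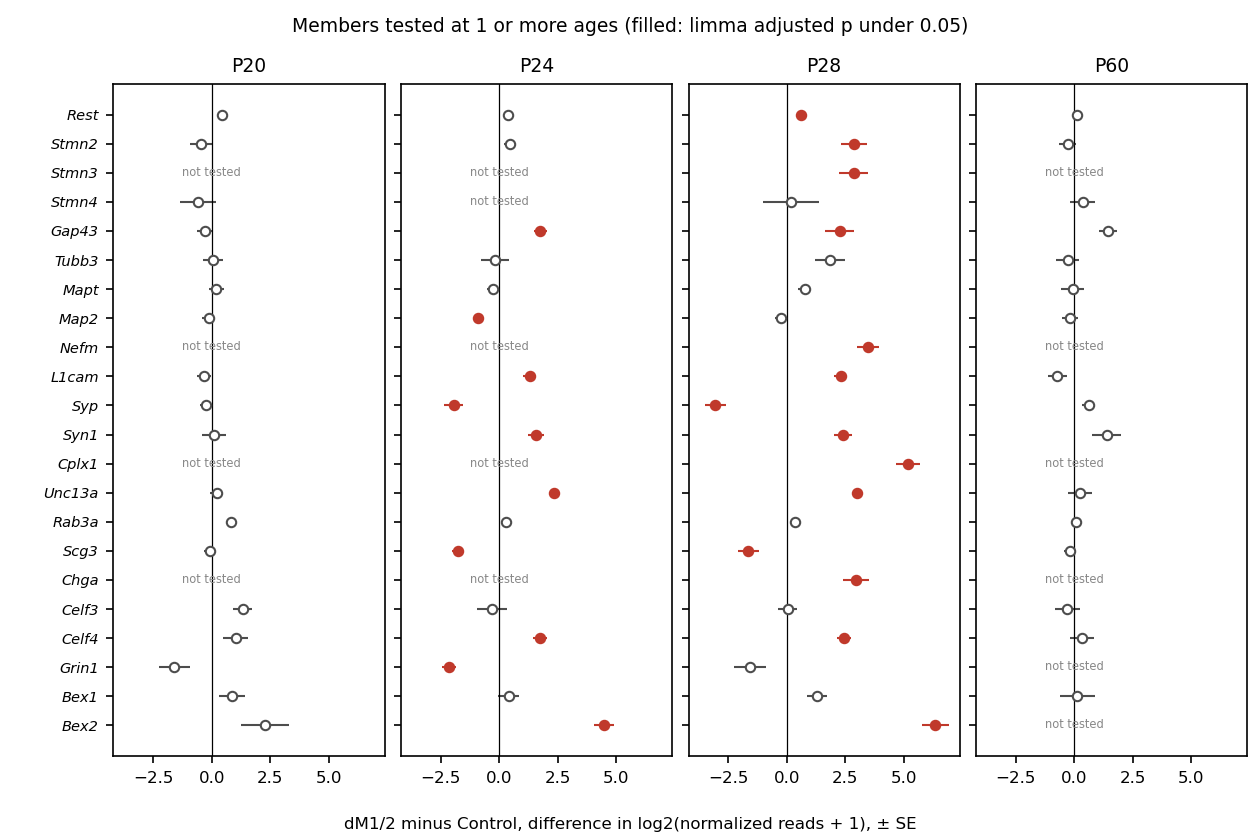
log2 fold change, dM1/2 minus Control, with its SE (horizontal axis) of the 22 members tested at 1 age or more (vertical axis), a panel for each age. Filled red points passed the test, open ones did not, and red points are found in the P24 and P28 panels, from -3.05 for Syp to 6.35 for Bex2.

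Rest itself was not lost from the mutant DP. At P28 it was at 1738, 1495 and 1811 normalized reads in Control and 2764, 2195 and 2679.7 in dM1/2, and it rose by 0.60 ± 0.14 (SE; adjusted p = 0.0172), 1.51-fold. All 3 dM1/2 libraries lay above all 3 Control libraries. The difference was small, and it no longer passed without P28 Control 1 (adjusted p = 0.0568), without P28 dM1/2 1 (0.0515) or without P28 dM1/2 3 (0.0708), with differences of 0.62, 0.53 and 0.56 left. At P20 Rest was at 1851, 1520.4 and 1661 in Control and 2392, 1961 and 2439 in dM1/2, again with no overlap, and the difference of 0.43 ± 0.13 (SE; adjusted p = 0.122) did not pass, though it did without P20 Control 1 (0.50, adjusted p = 0.0408). P24 values were 2074, 2151 and 2737 in Control and 3092, 3073 and 2719 in dM1/2, with overlap (0.36 ± 0.14 (SE; adjusted p = 0.1); adjusted p = 0.0282 without P24 Control 3), and P60 values 1312, 1518 and 1593 in Control and 1383, 1564 and 1883 in dM1/2, also overlapping (0.12 ± 0.16 (SE; adjusted p = 0.986)). The effect on Rest in anagen was not shown to differ from that in telogen, at a difference of 0.20 ± 0.14 (SE; adjusted p = 0.306).

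**Figure D4:**
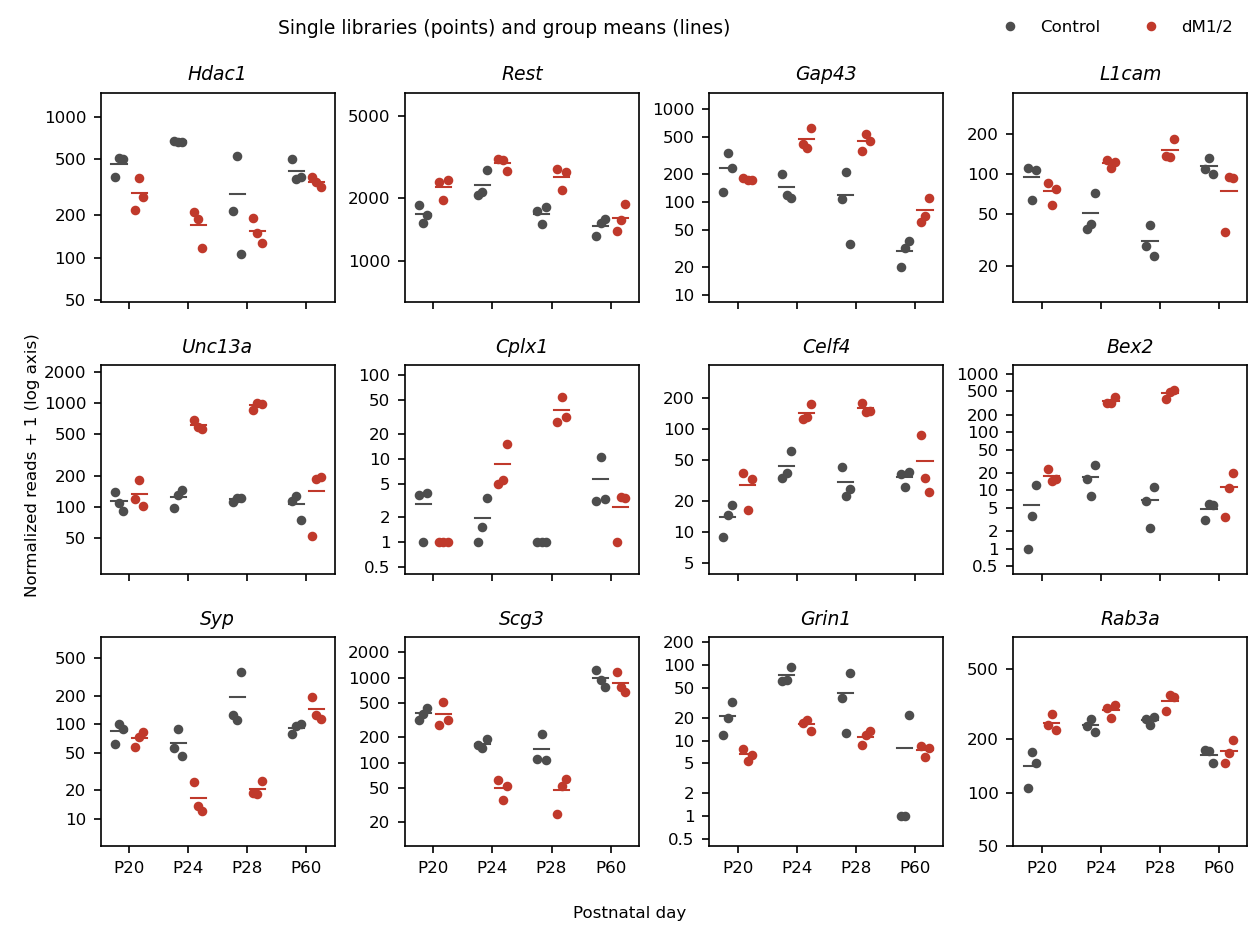
Normalized reads + 1 on a log axis (vertical) in every library by age (horizontal) for Hdac1, Rest and 10 other members, Control and dM1/2 side by side; points are libraries and lines are group means. Bex2, Cplx1 and Unc13a separate fully at P28, Syp, Scg3 and Grin1 lie lower in dM1/2 at P24, and Rab3a lies higher in dM1/2 at P20, P24 and P28 without passing in the limma fits per age.

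Among the 13 genes of the cytoskeleton and growth cone, Gap43 and L1cam rose and Map2 fell at P24, and Gap43, L1cam, Stmn2, Stmn3 and Nefm rose at P28. Gap43, a membrane phosphoprotein of growing axon tips, was at 199.6, 118 and 110.0 normalized reads in Control and 422, 383 and 622 in dM1/2 at P24. It rose by 1.75 ± 0.28 (SE; adjusted p = 0.00476), and each dM1/2 library was above each Control library. At P28 it was at 107, 209 and 34.1 in Control and 354, 542 and 450.0 in dM1/2, and it rose by 2.26 ± 0.60 (SE; adjusted p = 0.0262), 3.84-fold between the group means. The lowest value, 34.1, was in the library labelled P28 control 3, without which the log2 fold change was 1.56 (adjusted p = 0.00568). The groups did not overlap at P28, but Gap43 no longer passed without P28 Control 1 (adjusted p = 0.0643) or without P28 dM1/2 1 (0.0654), 2 (0.0968) or 3 (0.0781). In telogen it was at 126, 338 and 229 in Control and 179.6, 170.4 and 170.2 in dM1/2 at P20, where the groups overlapped (-0.30, adjusted p = 0.617), and at 18.9, 31.0 and 36.9 in Control and 60.6, 70.4 and 111 in dM1/2 at P60, where they did not (1.45 ± 0.40 (SE; adjusted p = 0.986)).

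L1cam encodes a neural adhesion molecule of the immunoglobulin family, on the X chromosome. Its values at P24 were 37.5, 40.7 and 70.3 normalized reads in Control and 127, 109 and 121 in dM1/2, a rise of 1.30 ± 0.28 (SE; adjusted p = 0.0132). At P28 they were 27.4, 40.3 and 22.8 in Control and 134, 133 and 182 in dM1/2, and the rise was 2.30 ± 0.28 (SE; adjusted p = 0.00153), 4.97-fold. The genotypes were apart at both ages; at P24 the call was lost without P24 Control 2 (adjusted p = 0.0504) and without P24 dM1/2 1 (0.0508). In telogen L1cam stood at 109.8, 62.2 and 106 in Control and 84.1, 57.5 and 75.8 in dM1/2 at P20 and at 107, 131 and 99.1 in Control and 35.3, 93.0 and 91.8 in dM1/2 at P60, and neither difference passed (-0.32 and -0.72, adjusted p = 0.566 and 0.986), although at P60 all 3 dM1/2 libraries lay below Control. Its exons share 100 bases with Arhgap4 on the same strand, which itself had log2 fold changes of 1.25 (adjusted p = 0.0157) at P24 and 1.85 (adjusted p = 0.0239) at P28, and reads of this stretch cannot be assigned to either gene. Of the 50-base windows in the exons of L1cam, 1.22% also occur in another gene.

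Of the stathmins, which bind tubulin dimers and loosen microtubules, Stmn2 and Stmn3 rose at P28. Stmn2 was at 63.1, 87.1 and 27.7 normalized reads in Control and 197, 593 and 531 in dM1/2 at P28 and rose by 2.86 ± 0.55 (SE; adjusted p = 0.00792), 7.43-fold, with every dM1/2 library above every Control library. At P24 it was at 165, 109 and 91.3 in Control and 188, 161 and 144 in dM1/2, where the groups overlapped (0.47 ± 0.25 (SE; adjusted p = 0.204)), at P20 at 99.1, 122 and 189 in Control and 43.2, 197 and 107 in dM1/2, and at P60 at 220.4, 109.6 and 145 in Control and 90.9, 116 and 181 in dM1/2, with overlap at both telogen ages (adjusted p = 0.645 and 0.986). Stmn3 was near the floor in Control at P28, with 2.17, 3.20 and 9.10 normalized reads in Control and 19.6, 40.7 and 59.8 in dM1/2. It rose by 2.87 ± 0.62 (SE; adjusted p = 0.0122), 8.30-fold, the genotypes did not overlap, and the call was lost without P28 dM1/2 2 (adjusted p = 0.0567) or P28 dM1/2 3 (0.0524). Too low to be tested elsewhere, Stmn3 was at 2.32, 1.004 and 3.57 in Control and 9.45, 11.4 and 14.5 in dM1/2 at P24, 2.68, 0 and 0 in Control and 4.55, 2.21 and 0 in dM1/2 at P20 and 6.30, 4.77 and 0 in Control and 5.05, 2.51 and 2.35 in dM1/2 at P60, so the genotypes were apart at P24 and mixed in telogen. With no filter on level Stmn3 passed at P24 (log2 fold change 2.02, adjusted p = 0.0218). The P28 effect was not shown to differ from the P24 effect for either gene, at 2.40 ± 0.66 (SE; adjusted p = 0.132) and 0.85 ± 0.81 (SE; adjusted p = 0.781). Stmn4 passed at no age and ranged from 1.52 to 75.6.

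Nefm, the medium neurofilament subunit, was barely detected in Control at P28, with 2.17, 1.92 and 0.758 normalized reads in Control and 25.6, 24.0 and 32.1 in dM1/2. It rose by 3.47 ± 0.47 (SE; adjusted p = 0.00214), 16.8-fold, and the lowest dM1/2 library, at 24.0, lay far above the highest Control library. At P24 it was too low to be tested, at 5.80, 7.53 and 7.94 in Control and 4.72, 13.3 and 17.9 in dM1/2, with overlap, as in telogen, where it was at 13.4, 0 and 0 in Control and 6.82, 4.43 and 1.85 in dM1/2 at P20 and 4.20, 7.15 and 4.61 in Control and 7.57, 7.54 and 7.06 in dM1/2 at P60. Its exons overlap those of Nefl, the light subunit, by 1108 bases (19.2%), and 18.6% of its 50-base windows occur in another gene, so the level of Nefm is uncertain to that extent. Nefl was itself too low to be tested, at 0.87, 0 and 0 in Control and 5.97, 5.999 and 12.8 in dM1/2 at P28, and with no filter on level it passed there (log2 fold change 2.83, adjusted p = 0.00533) and at P24 (1.53, adjusted p = 0.0461). Nefh, the heavy subunit, never exceeded 4.77 normalized reads. Ina, the internexin that assembles with them, was at 0, 0 and 0 in Control and 5.97, 2.14 and 7.63 in dM1/2 at P28, at least 3.61-fold higher in dM1/2 against the floor of 3 reads per library, and passed only with no filter (adjusted p = 0.00737). Dcx, a microtubule protein of young neurons, reached 16.2 normalized reads at most and was tested at no age.

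Unlike these, Map2, which binds microtubules of dendrites, was lower in the mutant. P24 values were 309, 409 and 280.3 normalized reads in Control and 170.1, 231 and 140.0 in dM1/2, and it fell by 0.89 ± 0.23 (SE; adjusted p = 0.0263) with all 3 dM1/2 libraries below Control. This call was lost without P24 Control 1 (adjusted p = 0.0517), P24 Control 2 (0.094), P24 dM1/2 1 (0.0781) or P24 dM1/2 3 (0.0796). At P28 Map2 was at 255, 225 and 204 in Control and 129.6, 242 and 217 in dM1/2, at P20 at 212, 116 and 172 in Control and 111, 170.4 and 170.2 in dM1/2 and at P60 at 241, 279 and 214 in Control and 121, 319 and 259 in dM1/2, and the genotypes overlapped at each of these ages (-0.26, -0.13 and -0.17; adjusted p = 0.477, 0.816 and 0.991). Mapt, which encodes tau, passed at no age, with its largest difference at P28 (0.77 ± 0.28 (SE; adjusted p = 0.0719)) and values from 20.2 to 81.9. Tubb3, the neuronal beta-tubulin, was at 4.35, 11.5 and 5.31 normalized reads in Control and 11.5, 27.0 and 54.6 in dM1/2 at P28, where the genotypes met at 11.5, and its difference of 1.84 ± 0.65 (SE; adjusted p = 0.0658) did not pass. Over all ages Tubb3 ranged from 3.998 to 85.7, highest in telogen. By edgeR and DESeq2 at P28 Tubb3 did pass, with Bex1 and Grin1 by DESeq2 alone.

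Of the 8 genes of vesicle release, Unc13a and Syn1 rose and Syp fell at both anagen ages, and Cplx1 rose at P28. Unc13a, whose product primes synaptic vesicles for fusion, was at 96.0, 128 and 144 normalized reads in Control and 695, 586 and 565 in dM1/2 at P24, a rise of 2.33 ± 0.19 (SE; adjusted p = 0.000832). P28 values were 109.6, 119.8 and 121 in Control and 864, 1011 and 993 in dM1/2, a rise of 3.02 ± 0.13 (SE; adjusted p = 0.000161), 8.19-fold, and the smallest adjusted p of any member at either age. The lowest dM1/2 library was several times the highest Control library at both ages, and the spread within each group was narrow. In telogen the genotypes overlapped, at 139, 108 and 88.9 in Control and 118, 179 and 99.9 in dM1/2 at P20 and 113, 126 and 73.8 in Control and 50.5, 184 and 193 in dM1/2 at P60 (adjusted p = 0.682 and 0.992). Unc13a shares 495 exon bases (3.92%) with Colgalt1, whose own log2 fold changes were 0.32 (adjusted p = 0.133) at P24 and 0.23 (adjusted p = 0.259) at P28.

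Syn1, the synapsin that tethers vesicles in reserve, is the member with an RE1 match of 2 mismatches. P24 values were 37.5, 101 and 58.8 normalized reads in Control and 168, 166 and 223 in dM1/2, and it rose by 1.58 ± 0.35 (SE; adjusted p = 0.0154); without P24 dM1/2 3 it did not pass (adjusted p = 0.0627). P28 values were 47.0, 30.1 and 88.0 in Control and 265, 304 and 237 in dM1/2, and it rose by 2.39 ± 0.38 (SE; adjusted p = 0.0038), 4.88-fold. No dM1/2 library overlapped with Control at either anagen age. In telogen they did, at 42.9, 16.2 and 22.9 in Control and 45.5, 17.7 and 24.04 in dM1/2 at P20 and 6.30, 26.2 and 16.1 in Control and 53.0, 20.1 and 51.8 in dM1/2 at P60 (0.09 and 1.38; adjusted p = 0.938 and 0.986). Syn1 shares 9 exon bases with Araf, which had log2 fold changes of -0.38 (adjusted p = 0.0727) at P24 and -0.64 (adjusted p = 0.0117) at P28.

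Cplx1 encodes complexin, a clamp on the fusion machinery. All 3 Control libraries were at 0 at P28, and dM1/2 had 26.4, 53.6 and 30.9 normalized reads. That is at least 25.4-fold higher, against the floor of 3 reads per library, and it passed the test (adjusted p = 0.000829). At P24 it was too low to be tested, at 0, 0.502 and 2.38 in Control and 3.998, 4.57 and 14.2 in dM1/2, with the genotypes apart and an adjusted p of 0.0487 with no filter. In telogen Cplx1 was at 2.68, 0 and 2.87 in Control and 0, 0 and 0 in dM1/2 at P20 and 2.10, 9.53 and 2.31 in Control and 0, 2.51 and 2.35 in dM1/2 at P60, near or under the floor. The remaining genes of this role, Rab3a, Snap25, Syt1 and Syt4, passed at no age in the limma fits per age with the filter on level.

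Syp, the vesicle membrane protein synaptophysin, fell in anagen, unlike Syn1, Unc13a and Cplx1. P24 values were 55.3, 87.4 and 45.7 normalized reads in Control and 23.6, 12.6 and 11.2 in dM1/2, and it fell by 1.95 ± 0.40 (SE; adjusted p = 0.0116); the call was lost without P24 Control 2 (adjusted p = 0.054). P28 values were 124, 110.2 and 352 in Control and 17.9, 17.1 and 24.1 in dM1/2, and it fell by 3.05 ± 0.46 (SE; adjusted p = 0.00324). Each dM1/2 library was below each Control library at both ages. The highest value of all, 352, was in the library labelled P28 control 3, and without it the P28 log2 fold change was -2.53 (adjusted p = 0.000811). In telogen Syp was at 61.6, 100.1 and 88.9 in Control and 56.8, 73.0 and 81.4 in dM1/2 at P20, overlapping (-0.23, adjusted p = 0.67), and at 77.7, 95.3 and 99.1 in Control and 192, 123 and 113 in dM1/2 at P60, where dM1/2 lay above Control without passing (0.62 ± 0.28 (SE; adjusted p = 0.986)). Gm14703 runs antisense over 875 bases (16.8%) of the exons of Syp, and 16.1% of its 50-base windows occur in that gene; the library kit kept strand, but whether the counting used it is not given in the sources used here, so the Syp value may or may not include reads of the other gene.

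Rab3a, a small GTPase of synaptic vesicles, was well expressed in every library, from 104 to 356 normalized reads. It was at 104, 168 and 146 normalized reads in Control and 239, 279 and 226 in dM1/2 at P20 (0.85 ± 0.21 (SE; adjusted p = 0.0952)), and it did not pass by limma, though it did by DESeq2 and in a fit over all 24 libraries. At P24 (0.28, adjusted p = 0.179) and P28 (0.36, adjusted p = 0.0932) the dM1/2 libraries were again all above Control without passing. Snap25, a SNARE protein of the fusion complex, was too low to be tested, yet at P28 it was at 0.435, 1.28 and 2.28 in Control and 11.5, 15.9 and 9.63 in dM1/2 and passed with no filter (2.57, adjusted p = 0.00766). The calcium sensors Syt1 and Syt4 reached 15.3 and 6.76 at most, and neither separated the genotypes at any age.

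The 5 granins and related proteins of dense-core granules were split. Scg3, a sorting protein of secretory granules, was the most abundant of them in Control, and it fell in anagen. P24 values were 162, 149 and 189 normalized reads in Control and 61.1, 35.4 and 52.1 in dM1/2, and it fell by 1.76 ± 0.25 (SE; adjusted p = 0.00323). P28 values were 111, 218 and 107 in Control and 24.3, 52.7 and 63.8 in dM1/2, and it fell by 1.64 ± 0.44 (SE; adjusted p = 0.0274), with no overlap at either age. The P28 call was lost without P28 Control 1 (adjusted p = 0.0578), P28 Control 2 (0.054), P28 dM1/2 1 (0.0638) or P28 dM1/2 2 (0.0661). In telogen Scg3 had higher values in both genotypes and they overlapped, at 321, 379 and 439 in Control and 275, 518 and 318 in dM1/2 at P20 and 1241, 932 and 779 in Control and 1182, 777 and 675 in dM1/2 at P60 (-0.08 and -0.18; adjusted p = 0.876 and 0.986); the difference between ages was not tested.

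Chga, the chromogranin of endocrine and sympathetic cells, moved in the opposite direction to Scg3 at P28. It was at 2.17, 2.56 and 1.14 normalized reads in Control and 12.8, 34.7 and 22.1 in dM1/2 there, and it rose by 2.96 ± 0.55 (SE; adjusted p = 0.00692), 11.8-fold, with no overlap; without P28 dM1/2 2 its mean was too low for it to be tested. P24 values were 1.55, 6.02 and 8.34 in Control and 3.998, 4.19 and 2.37 in dM1/2, with overlap. In telogen Chga was at 0 in all 6 libraries at P20, and at 0, 0 and 0 in Control and 2.52, 2.51 and 0 in dM1/2 at P60. Scg2, in whose first exon the joined half-sites lie, Chgb and the neuropeptide precursor Vgf were too low to be tested at any age, with highest values of 7.57, 5.74 and 8.60. Vgf was at 0, 3.20 and 0.379 in Control and 1.71, 0.857 and 1.61 in dM1/2 at P28.

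Among the 4 RNA-binding proteins, Celf4 rose and Celf3 did not pass. Celf4, a regulator of neuronal mRNA translation, was at 32.1, 36.1 and 59.9 normalized reads in Control and 123, 129 and 174 in dM1/2 at P24, and it rose by 1.75 ± 0.29 (SE; adjusted p = 0.00546). P28 values were 42.2, 21.1 and 25.0 in Control and 179, 145 and 149.7 in dM1/2, and it rose by 2.44 ± 0.30 (SE; adjusted p = 0.00149), 5.36-fold. At both ages all 3 dM1/2 libraries were above Control. In telogen they overlapped, at 8.04, 13.5 and 17.2 in Control and 36.4, 15.5 and 31.4 in dM1/2 at P20 and 35.7, 26.2 and 36.9 in Control and 85.8, 32.7 and 23.5 in dM1/2 at P60 (1.02 and 0.31; adjusted p = 0.321 and 0.987). Celf3, a splicing regulator of the same family, was at 29.5, 13.5 and 25.8 normalized reads in Control and 72.8, 59.8 and 40.7 in dM1/2 at P20, where the genotypes were apart without passing (1.33 ± 0.41 (SE; adjusted p = 0.133)). In anagen Celf3 overlapped, with differences of -0.29 at P24 and 0.04 at P28. Elavl3 and Elavl4, which stabilise neuronal mRNAs, were tested at no age and reached 15.1 and 5.74 at most.

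Of the glutamate receptor subunits, Grin1 fell at P24 and Gria2 was not tested. Grin1, the obligate subunit of NMDA receptors, was at 61.5, 61.8 and 92.9 normalized reads in Control and 16.0, 17.9 and 12.5 in dM1/2 at P24, and it fell by 2.14 ± 0.30 (SE; adjusted p = 0.00328) with dM1/2 below Control throughout; in a single fit over all 24 libraries it did not pass (adjusted p = 0.068). P28 values were 35.2, 11.5 and 77.0 in Control and 7.68, 10.7 and 12.4 in dM1/2, where 1 Control library lay among dM1/2 and the difference of -1.57 ± 0.67 (SE; adjusted p = 0.114) did not pass. That changed with the tool and the library: by DESeq2 the adjusted p was 0.0137, without P28 Control 2 it was 0.0125, and without the library labelled P28 control 3, which held the highest value, it was 0.236 (log2 fold change -0.94). At P20 Grin1 was at 10.7, 18.9 and 31.5 in Control and 6.82, 4.43 and 5.55 in dM1/2, apart but not passing (-1.59 ± 0.66 (SE; adjusted p = 0.223)), and at P60 at 0, 0 and 20.8 in Control and 7.57, 5.03 and 7.06 in dM1/2, too low to be tested. Grin1os, an antisense gene, overlaps 1307 bases (13.5%) of its exons, and 8.24% of its 50-base windows occur in another gene, so the Grin1 value may include reads of Grin1os, as for Syp. Gria2, the AMPA receptor subunit with the RE1 match of 1 mismatch, was tested at no age and did not exceed 8.999 in any library; at P28 it was at 0.435, 0 and 3.41 in Control and 3.41, 8.999 and 2.01 in dM1/2, with overlap.

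Bex2 showed the largest rise of any member on the log2(normalized reads + 1) scale. As a fold it cannot be ranked against Cplx1 at P28, which has a lower bound only. Bex genes encode small X-linked adaptor proteins expressed in brain. At P24 Bex2 was at 14.7, 7.03 and 26.6 normalized reads in Control and 315, 310.0 and 401 in dM1/2, and it rose by 4.49 ± 0.43 (SE; adjusted p = 0.0013), 21.2-fold. P28 values were 5.65, 1.28 and 10.6 in Control and 375, 487 and 517 in dM1/2, and it rose by 6.35 ± 0.58 (SE; adjusted p = 0.000606), 78.5-fold between the group means. The lowest dM1/2 library was far above the highest Control library at both ages. At P20 it was at 0, 2.71 and 11.5 in Control and 22.7, 13.3 and 14.8 in dM1/2, also without overlap but with a wide SE (2.29 ± 1.01 (SE; adjusted p = 0.249)), and at P60 it was too low to be tested, at 2.10, 4.77 and 4.61 in Control and 2.52, 10.1 and 18.8 in dM1/2. Bex1 was above Control in every dM1/2 library at P28, at 12.2, 10.2 and 27.7 in Control and 34.97, 37.3 and 44.6 in dM1/2, and did not pass (1.29 ± 0.43 (SE; adjusted p = 0.0527)); without the library labelled P28 control 3 it passed. Bex1 overlapped between the genotypes at P24 (0.40, adjusted p = 0.568), as in telogen.

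The Bex genes are close copies, so their reads are partly shared. Of the 50-base windows of Bex2, 22.2% also occur in Bex3 (listed as Ngfrap1) or Bex1, and of those of Bex1, 30.9% occur in Bex4, Tceal7 or Bex2. Looked at for that reason, and after the values of Bex2 were seen, Ngfrap1 had log2 fold changes of 0.35 (adjusted p = 0.0911) at P24 and 0.81 (adjusted p = 0.0395) at P28, and Bex4 of 1.64 (adjusted p = 0.0334) and 2.87 (adjusted p = 0.00782). Bex4 had Control means under 10 normalized reads at both ages and entered the test only through its dM1/2 libraries. Bex1, Bex2, Syn1, Syp, L1cam and Dcx are the 6 X-linked members. They include members that rose and, in Syp, 1 that fell.

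In telogen no member passed the test between the genotypes. At P20, 0 of 18 tested members passed by limma, where 0.433% of all 13845 genes did. By limma 5 had an unadjusted p under 0.05, as did 2735 of all 13845 genes. edgeR called 0 (0.563% of all genes) and DESeq2 called 1, Rab3a (4.82% of all genes). The median log2 fold change was 0.06 beside -0.01 over all genes. The P20 calls hung on single libraries: over all genes 1530 (11.1%) passed without P20 Control 1 and 0 without P20 dM1/2 3. At P60, 0 of 16 passed by limma, where 0.00% of 14042 genes did. By limma 1 had an unadjusted p under 0.05, as did 525 of all 14042 genes. edgeR and DESeq2 each called 0 members (0 and 0.185% of all genes). The median was 0.09 beside 0.02. Telogen libraries were shallower, and at P20 and P60 differences among genes under the floor of 3 reads were not detectable.

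Whether the genotype effect itself differed between stages was tested over all 24 libraries, as the mean effect at P24 and P28 minus the mean effect at P20 and P60. Of 18 members tested, 8 passed, where 30.2% of all 14243 genes did; for 6 the effect was higher in anagen (16.1%) and for 2 lower (14.1%). The differences were 3.78 ± 0.75 (SE; adjusted p = 0.000927) for Bex2, 2.44 ± 0.36 (SE; adjusted p = 7.84e-05) for Unc13a, 2.32 ± 0.34 (SE; adjusted p = 6.97e-05) for L1cam and 2.03 ± 0.51 (SE; adjusted p = 0.00495) for Stmn2. Gap43 and Celf4 followed with 1.43 ± 0.47 (SE; adjusted p = 0.0264) and 1.43 ± 0.42 (SE; adjusted p = 0.0145). The vesicle protein Syp and the granule protein Scg3 went the other way, with -2.69 ± 0.38 (SE; adjusted p = 5.58e-05) and -1.57 ± 0.34 (SE; adjusted p = 0.00189). Syn1 (1.25 ± 0.52 (SE; adjusted p = 0.0733)) and Grin1 (-1.76 ± 0.84 (SE; adjusted p = 0.12)) did not pass. Gap43 no longer passed without P20 Control 2 or without P24 dM1/2 3, each of which left 7 members. Bex2 had Control means of 4.73, 16.1, 5.85 and 3.83 normalized reads at P20, P24, P28 and P60. It thus reached the average of 10 only through its dM1/2 libraries and had to differ to be tested. The median over the members was 0.35 beside -0.03 over all genes.

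Between early and mid anagen, the effect of the genotype was not shown to differ for any member. Of 21 tested over the 12 anagen libraries, 0 passed by limma, where 0.707% of all 14139 genes did. By limma 8 had an unadjusted p under 0.05, as did 1680 of all 14139 genes. edgeR called 0 (0.728% of all genes) and DESeq2 called 3, Cplx1, Nefm and Stmn2 (4.21% of all genes). The largest differences, P28 effect minus P24 effect, were 3.05 ± 0.91 (SE; adjusted p = 0.174) for Cplx1, 2.94 ± 0.70 (SE; adjusted p = 0.0901) for Nefm and 2.40 ± 0.66 (SE; adjusted p = 0.132) for Stmn2. That Map2 and Grin1 passed at P24 and not at P28 is therefore no shown difference: theirs were 0.63 ± 0.36 (SE; adjusted p = 0.552) and 0.57 ± 0.76 (SE; adjusted p = 0.866). P24 and P28 have their own Control libraries.

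The library labelled P28 control 3 bears on every P28 value. Without it, 15 of 22 members passed at P28 (13 rose, 2 fell), where 40.9% of all genes did, and these were the same 14 with Bex1 added. The log2 fold changes became 6.87 for Bex2, 5.18 for Cplx1, 3.36 for Stmn3, 3.20 for Nefm, 3.05 for Unc13a, 2.80 for Syn1 and 2.74 for Chga. They became 2.40 for Stmn2, 2.36 for Celf4, 2.12 for L1cam, 0.65 for Rest and -1.82 for Scg3. All of these kept their direction. The stage comparison without it had 9 members past the threshold, the same 8 with Syn1 added, where 30.9% of all genes passed, and the comparison of P28 with P24 still had 0.

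Genes that work with REST were examined alongside. Of 20 corepressor partners, all of them tested at each age, 1 rose at P20 (Sin3a; 0.433% of all genes passed), 3 rose and 4 fell at P24, 5 rose and 4 fell at P28, and 0 passed at P60 (limma; 0 had an unadjusted p under 0.05). That is 35% of the list at P24 and 45% at P28, beside 26.6% and 35.5% of all genes. With each P24 library left out, 3 or 4 rose and 2 to 4 fell (14.6% to 28.7% of all genes passed). With each P28 library left out, 4 or 5 rose and 1 to 4 fell (21.5% to 40.9%). At P28 only 1 fell without Control 1, dM1/2 2 or dM1/2 3. At P20 without Control 1, 3 rose and 1 fell, where 11.1% of all genes passed. Rcor2, a CoREST paralogue, was at 134, 142 and 209.6 normalized reads in Control and 484, 461 and 582 in dM1/2 at P24 and at 53.5, 96.7 and 44.0 in Control and 626, 638 and 573 in dM1/2 at P28, rising by 1.67 ± 0.20 (SE; adjusted p = 0.0021) and 3.30 ± 0.29 (SE; adjusted p = 0.000547). Sin3a, the scaffold of the SIN3 complex, rose by 0.65 ± 0.11 (SE; adjusted p = 0.0491) at P20, 1.12 ± 0.15 (SE; adjusted p = 0.00255) at P24 and 1.35 ± 0.11 (SE; adjusted p = 0.00046) at P28. The P20 call of Sin3a passed without P20 Control 1 (adjusted p = 0.019) and was lost without any other single P20 library: without P20 Control 2 (adjusted p = 0.116) or 3 (0.192), or P20 dM1/2 1 (0.115), 2 (0.109) or 3 (0.188). Cdyl rose by 0.58 ± 0.11 (SE; adjusted p = 0.00859) at P24 and 0.45 ± 0.11 (SE; adjusted p = 0.0178) at P28, and Phf21a, a histone reader of the LSD1 complex, fell by 0.54 ± 0.13 (SE; adjusted p = 0.019) and 0.81 ± 0.19 (SE; adjusted p = 0.0162). For the stage comparison 9 of the 20 passed (4 higher in anagen, 5 lower; 30.2% of all genes passed), and 0 did between P28 and P24 (limma; 3 at an unadjusted p under 0.05). The list includes Hdac1, whose fall at P24 is 1 of the 4. Its median difference was 0.08 at P24 and 0.05 at P28, beside -0.01 and 0.00 over all genes.

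Of 9 genes for the turnover, phosphatase control and splicing of REST, Ctdspl and Ctdsp1, phosphatases that stabilise it, fell at both anagen ages and no other passed at any. Ctdspl fell by 0.86 ± 0.14 (SE; adjusted p = 0.00531) and 1.52 ± 0.23 (SE; adjusted p = 0.00349), and Ctdsp1 by 0.54 ± 0.13 (SE; adjusted p = 0.0241) and 0.67 ± 0.13 (SE; adjusted p = 0.00808). The 2 are 22.2% of the list, beside 26.6% of all genes at P24 and 35.5% at P28. At P24 only 1 fell without P24 Control 1, Control 2, dM1/2 1 or dM1/2 2. At P28, 2 fell whichever library was left out. At P20 and P60, 0 of the 9 passed by limma, with 0 and 1 at an unadjusted p under 0.05. In the stage comparison 2 of the 9 passed, both lower in anagen, where 30.2% of all genes passed. Among 45 other genes with RE1 elements known from elsewhere, 18 of 26 tested passed at P24 (15 rose, 3 fell) and 18 of 27 at P28 (17 rose, 1 fell). Over all genes 26.6% and 35.5% passed. The medians of the tested genes were 1.18 and 2.47, and over every gene of the list with a read they were 0.19 and 0.63. Scn3b, Chrm4 and Disp2 at P24, and Chrm4, Ptprn, Dbh, Npas4, Sez6, Mmp24 and Disp2 at P28, entered the test only through their dM1/2 libraries, so they had to differ to be tested, and the counts and the first medians carry that selection. With each P24 library left out, 8 to 15 of these genes rose and 3 fell, where 14.6% to 28.7% of all genes passed. The fewest rose without P24 dM1/2 1. With each P28 library left out, 16 or 17 rose and 1 fell (21.5% to 40.9% of all genes passed). In telogen 0 of 19 passed at P20 and 0 of 20 at P60 by limma, with 2 and 0 at an unadjusted p under 0.05. Without P20 Control 1, 2 rose, where 11.1% of all genes passed. For the stage comparison 15 of 25 passed (14 higher in anagen, 1 lower; 30.2% of all genes passed), and 1 of 27, Pcsk2, between P28 and P24.

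The largest rises in that list were of Dbh, the enzyme that makes noradrenaline, and Chrm4, a muscarinic receptor. Dbh was at 3.87, 5.02 and 22.2 normalized reads in Control and 397, 126 and 118 in dM1/2 at P24 and 0, 0.64 and 0.379 in Control and 32.4, 132 and 145 in dM1/2 at P28, and it rose by 4.37 ± 0.70 (SE; adjusted p = 0.00477) and 6.04 ± 0.67 (SE; adjusted p = 0.00104). At P20 Dbh was at 21.4, 27.1 and 2.87 in Control and 287, 59.8 and 90.6 in dM1/2, where dM1/2 lay above Control without passing (3.12 ± 0.79 (SE; adjusted p = 0.0993)), and at P60 at 75.6, 31.0 and 85.3 in Control and 15.1, 32.7 and 70.6 in dM1/2, with overlap. Chrm4 was at 2.32, 6.53 and 12.7 in Control and 66.9, 144 and 227 in dM1/2 at P24 and 2.17, 5.76 and 2.28 in Control and 263, 391.7 and 279 in dM1/2 at P28, and it rose by 4.23 ± 0.62 (SE; adjusted p = 0.00368) and 6.22 ± 0.39 (SE; adjusted p = 0.000227). Disp2 and Sez6, membrane proteins of neurons, rose by 3.34 ± 0.54 (SE; adjusted p = 0.00492) and 3.15 ± 0.70 (SE; adjusted p = 0.0155) at P24 and by 5.58 ± 0.41 (SE; adjusted p = 0.000333) and 5.99 ± 0.38 (SE; adjusted p = 0.000242) at P28. In each of these 4 genes no dM1/2 library overlapped with Control at either age. At P28 their Control libraries were all under 10 normalized reads.

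Markers of nerve and other skin cells were read as well, because several members are also expressed in nerve endings and Merkel cells. Of 10 sensory neuron markers, 2 were tested at P24 and 0 passed by limma (0 at an unadjusted p under 0.05), and 3 were tested at P28, of which 2 rose. Both had a Control mean under 10 normalized reads and entered the test only through their dM1/2 libraries, so they had to differ to be tested and no share of all genes is set beside them. Without P28 dM1/2 2, 2 were tested and 1 rose. The summed level of the 10 markers was 66.9, 68.8 and 176 normalized reads in Control and 80.7, 66.3 and 40.2 in dM1/2 at P24, and 50.9, 109.5 and 49.3 and 202, 176 and 98.8 at P28, so the genotypes overlapped at both ages. Avil was the most abundant, except for Tac1 in P28 and P60 dM1/2. In the P28 libraries Tac1, a neuropeptide gene, was at 1.74, 8.97 and 2.28 in Control and 66.1, 76.7 and 38.9 in dM1/2, a rise of 3.73 ± 0.59 (SE; adjusted p = 0.00385). Isl1, a transcription factor that defines these neurons, was at 0 in all 6 libraries at P24 and in all dM1/2 libraries at P28, and at most 0.64 in Control there. Pou4f1, another, was at 5.22, 3.20 and 0 in Control and 0.426, 0.428 and 3.21 in dM1/2 at P28. In Control DP, 4 of the 10 had more than 3 reads in every library at P24 and 2 at P28, and in dM1/2 6 and 5 did. In telogen 0 of 2 at P20 and 0 of 3 at P60 passed by limma, with 0 and 1 at an unadjusted p under 0.05.

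Schwann cell markers did not move together. Of 9, 6 were tested; at P24 Erbb3 rose while Cdh19 and S100b fell, and at P28 Erbb3 rose and Cdh19 fell. That is 3 of 6 and 2 of 6, where 26.6% and 35.5% of all genes passed. The P24 calls hung on single libraries. Without P24 Control 2, 0 passed, where 14.6% of all genes did. Without P24 dM1/2 2 or 3, 0 rose, and without P24 Control 1 or dM1/2 1 only 1 fell. Summed, the 9 markers were at 1103, 994.6 and 579 in Control and 270.1, 461 and 468 in dM1/2 at P24, apart, and at 1154, 699 and 683 and 586, 746 and 578 at P28, overlapping. S100b was the most abundant in anagen and Mbp in telogen, and Sox10, their defining transcription factor, was at 1.30, 1.92 and 0.379 in Control and 1.28, 1.29 and 1.20 in dM1/2 at P28. In Control DP 7 of the 9 had more than 3 reads in every library at P24 and 5 at P28, and in dM1/2 7 and 6 did. Of 8 Merkel cell markers, 0 of 2 passed at P24 (limma; 0 at an unadjusted p under 0.05) and 1 of 3 at P28, Insm1, at 1.30, 1.28 and 0 in Control and 31.6, 79.7 and 9.63 in dM1/2, a rise of 4.13 ± 0.84 (SE; adjusted p = 0.00965). Insm1 too entered the test only through its dM1/2 libraries. Without P28 dM1/2 2 the mean of Insm1 was too low for it to be tested, and of the 2 Merkel markers still tested 0 passed. Merkel marker sums were 1574, 2883 and 998 against 702, 1603 and 1495 at P24 and 3786, 1565 and 3766 against 1588, 1259 and 1258 at P28, nearly all of it Piezo2. Atoh1, which defines Merkel cells, was at 0 in the anagen libraries except for 0.429 in P28 dM1/2 2. Pou4f3, another, was at 0 in them except for 0.381 in P24 dM1/2 2.

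DP markers themselves fell more often than they rose in anagen: of 15, 2 rose and 7 fell at P24, and 3 rose and 5 fell at P28, where of all genes 14.8% rose and 11.8% fell at P24 and 20.0% rose and 15.6% fell at P28. At P20 and P60, 0 were called by limma. An unadjusted p under 0.05 was reached by 9 and 8 of them, and by 2735 of all 13845 genes and 525 of all 14042. With each P24 library left out, 1 or 2 rose and 4 to 6 fell (14.6% to 28.7% of all genes passed). With each P28 library left out, 2 to 4 rose and 3 to 9 fell (21.5% to 40.9%), the 9 without P28 Control 2. Without P20 Control 1, 4 rose, where 11.1% of all genes passed. At P20 the summed level of the DP markers was 47393, 39033 and 45993 in Control and 70458, 55144 and 65049 in dM1/2, higher in dM1/2 without overlap, and their median log2 fold change was 0.51. At P60 it was 25852, 32429.7 and 36774 and 19709, 22604 and 33677, with overlap and a median of -0.65. In anagen the summed level was 335772, 358926 and 412393 in Control and 205355, 232421 and 187838 in dM1/2 at P24, without overlap, and 295409, 162765 and 473807 and 168733, 145403 and 158372 at P28, with overlap. Vcan was the most abundant of them, except for Wif1 in P28 dM1/2 and Trps1 in P20 dM1/2 and P60 Control. Among the other lists, to be read beside the same shares of all genes, 0 of 3 melanocyte markers tested passed at P24 and at P28 (0 at an unadjusted p under 0.05 at both), 2 of 7 keratinocyte markers fell at P24 (Krt1, and Epcam, which entered the test only through its Control libraries) and 0 of 6 passed at P28 (1 at an unadjusted p under 0.05). Of 6 endothelial markers 1 fell at P24 (Pecam1) and 0 passed at P28, of the immune markers 1 of 3 fell at P24 (Cd68) and 0 of 4 passed at P28, and 0 of 3 and 0 of 2 muscle markers passed at P24 and P28 (limma throughout; 0 at an unadjusted p under 0.05 for these lists at P28). Single libraries moved these P24 calls too. Without P24 Control 2, 0 of the keratinocyte, endothelial and immune markers passed (14.6% of all genes did). Without P24 Control 3, 2, 3 and 2 of them fell in that order (28.7%). What part any of these cell types had in the levels of the members was not tested.

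Without the library labelled P28 control 3, where 40.9% of all genes passed, the other lists were counted again at P28. Of the corepressor partners 5 rose and 4 fell, as before, with Hdac1 in the place of another gene, and 2 of the turnover genes still fell. Leaving out other single P28 libraries moved the corepressor count further, as given above. Of the other RE1 genes 17 rose and 1 fell, the same as with it. The log2 fold changes became 3.07 for Rcor2, 1.37 for Sin3a, 0.46 for Cdyl, -0.70 for Phf21a, -1.29 for Ctdspl and -0.69 for Ctdsp1. They became 6.08 for Dbh, 6.05 for Chrm4, 6.03 for Disp2, 5.95 for Sez6, 3.504 for Tac1 and 3.73 for Insm1, and all of these still passed. Among markers 2 of sensory neurons rose, 1 of Schwann cells rose and 2 fell, 1 of Merkel cells rose and 1 fell, and 4 of the DP rose and 5 fell. Of melanocyte and endothelial markers 1 each fell, and 0 of the keratinocyte, immune and muscle markers passed.

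**Figure D5:**
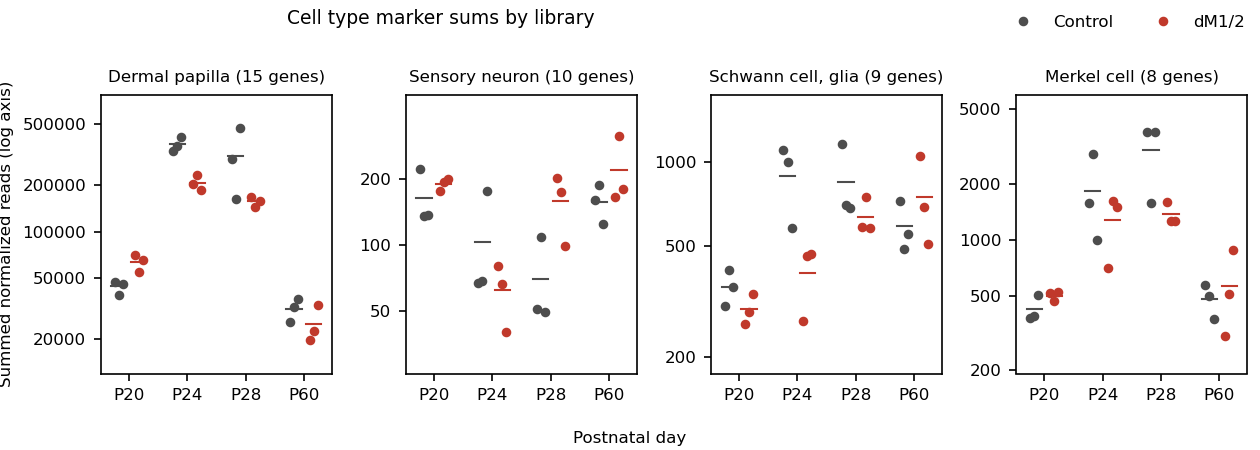
Summed normalized reads of marker lists (vertical axis, log scale) in every library by age and genotype (horizontal axis): 15 DP, 10 sensory neuron, 9 Schwann cell and 8 Merkel cell markers. The DP sum exceeds the others in every library, and the sensory neuron sum reaches 314 normalized reads at most.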

How the data were processed

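Processed tables of the 24 libraries were used. The authors trimmed 50-base single-end reads with Trimmomatic, aligned them with TopHat2 (version 2) to mm10, counted reads per Ensembl gene (GRCm38.p4) with HTSeq and divided them by DESeq2 size factors, so the deposited values are a normalized signal per gene; the libraries were directional, and the strand setting of the counting is not given in the sources used here. Deposited columns holding the authors' own fold changes and p-values were not used. Whole reads were recovered from the values (100.0% whole within 0.05 reads), which gave the depth, 8171944 to 49331751 reads.

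limma 3.58.1 in R 4.3.3 was run on log2(normalized reads + 1), 2-sided, over genes averaging 10 normalized reads or more, with Benjamini-Hochberg adjustment, for each age (3 Control against 3 dM1/2), for anagen minus telogen effects (24 libraries) and for the P28 minus P24 effect (12). Alternatives were an added 10 in place of 1, no filter, a replicate block, a single fit over 24 libraries, each library left out, and count tests on the recovered reads. edgeR 4.0.16 (TMM) called 78, 3746, 4918 and 0 genes for P20, P24, P28 and P60 in turn, 4342 for anagen minus telogen and 103 for P28 minus P24; DESeq2 1.42.0 called 668, 4704, 5827, 26, 4839 and 595.

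Values in every library are given for Rest and each member past the threshold at any age. Other members are given by range and counts, with as examples the highest Control level of their role. Of other lists, Hdac1, Hdac2 and up to 4 genes with the largest change past the threshold at P24 and P28 are named, and of marker lists the most abundant gene and those at 0; some genes that these rules would name are not reported here. Genes that overlap a member, Ngfrap1, Bex4, Pcsk2, Sox10, Pou4f1 and called genes of lists with 5 calls or fewer were named after their values were seen. The members and lists were chosen with earlier results of these data known. Replicate libraries differed beyond sampling noise (chi-square per gene 10.4 to 1485.3).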

Additional observations from a re-analysis of the deposited data

Results flagged for a closer look

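For 8 of 18 members tested, the difference between dM1/2 and Control was itself different in anagen and in telogen. The limma test of that difference used all 24 libraries, and 30.2% of all 14243 genes passed it. The anagen effect was higher for Bex2 by 3.78 ± 0.75 (SE; adjusted p = 0.000927) on the log2 scale. For Unc13a it was higher by 2.44 ± 0.36 (SE; adjusted p = 7.84e-05), for L1cam by 2.32 ± 0.34 (SE; adjusted p = 6.97e-05) and for Stmn2 by 2.03 ± 0.51 (SE; adjusted p = 0.00495). For Gap43 and Celf4 it was higher by 1.43 ± 0.47 (SE; adjusted p = 0.0264) and 1.43 ± 0.42 (SE; adjusted p = 0.0145). In Syp and Scg3 it was lower, at -2.69 ± 0.38 (SE; adjusted p = 5.58e-05) and -1.57 ± 0.34 (SE; adjusted p = 0.00189). Bex2 averaged under 10 normalized reads over the Control libraries, so it entered this test only through dM1/2 and had to differ to be tested. Gap43 no longer passed without P20 Control 2 or without P24 dM1/2 3. Sex and sequencing depth went with stage in these libraries, and cannot be told apart from it.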

How the results depend on the processing

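Of 50 named fold changes, none turned in a called direction under any alternative. Of 24 called ones, 16 passed without each single library that left them tested (Chga at P28 was not tested without P28 dM1/2 2) and 8 did not; over the settings that keep all libraries, 139 of 140 values kept their call, the exception being Grin1 at P24. At P20 the member count of 0 became 1 by DESeq2 (4.82% of all genes passed) and 1 in a single fit over 24 libraries (0.161%), Rab3a in both. With each P20 library left out it was 0 to 1 (Rest), where 0% to 11.1% of all genes passed. The P28 minus P24 count of 0 became 3 by DESeq2, where 4.21% of all genes passed. Counts with each library left out ranged from 7 to 11 at P24 (14.6% to 28.7% of all genes passed), 10 to 16 at P28 (21.5% to 40.9%) and 7 to 9 for anagen minus telogen (26.0% to 31.0%). They stayed at 0 at P60 (0% to 0.0143%) and for P28 minus P24 (0.0566% to 1.18%). With no filter, 13 members passed at P24 and 17 at P28, while the share of all genes fell to 17.5% and 24.7%. The single fit over 24 libraries gave 11 at P28, 10 of them shared, where 39.8% of all genes passed, and did not test Chga, Cplx1, Nefm and Stmn3. The cause of these changes was not tested. With the replicate number as a replicate block, the same members passed (0, 10, 14 and 0 at P20, P24, P28 and P60, 8 and 0 for the stage comparisons). Over all genes the calls went from 60 to 439, 3735 to 2366, 5018 to 3713 and 0 to 6, and for the stage comparisons from 4298 to 3939 and 100 to 0. Same-numbered libraries correlated at 0.082 to 0.231 at P20, -0.401 to 0.043 at P24, -0.229 to 0.027 at P28 and 0.024 to 0.344 at P60. Differently numbered ones correlated at -0.15 to 0.072, -0.303 to 0.403, -0.162 to 0.223 and -0.369 to 0.221 in the same order. These correlations do not settle whether the numbers pair the libraries. Depth limits the telogen ages most, where 3 reads are worth 5.55 normalized reads or more.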
